A study of Homo sapiens with 27 samples.

Results

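Aminoacyl-tRNA synthetases join each amino acid to its own tRNA, the step that fixes the genetic code before a ribosome is reached. One set of enzymes serves the cytosol and a second, separately encoded set serves mitochondrial translation, while glycyl-tRNA synthetase (GARS1) and lysyl-tRNA synthetase (KARS1) serve both from a single gene. Many of the cytosolic genes are textbook targets of ATF4, the transcription factor that is translated when amino acids run short or when unfolded protein accumulates, through an amino acid response element in their promoters. Charging a tRNA costs ATP, and the mitochondrial set is needed for the respiratory chain subunits that mitochondria encode.

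The genes were chosen by symbol: FARSA, FARSB, EARS2, FARS2, PARS2, TARS3 and every gene whose symbol is a one-letter amino acid code followed by ARS, alone or with 1 or 2, with CARS2 left out and only probe sets that the platform annotation gives to a single gene. This gave 32 genes with 64 probe sets, of 19775 genes with a single-symbol probe set and of 54675 probe sets on the array. The cytosolic enzymes, the 2 dual ones included, numbered 18 genes and the mitochondrial ones 14 genes. MARS1, QARS1 and TARS2 were read only by probe sets that carry a microRNA symbol as well and were not included.

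RNA was taken from 3 human cancer cell lines, the prostate cancer line PC-3, the ovarian adenocarcinoma line SK-OV-3 and the melanoma line WM793B, and hybridised to Affymetrix U133 Plus 2.0 arrays, 27 in all. Each line was kept for 72 h in ambient oxygen (21%, control), in constant 1% oxygen (chronic hypoxia) or in alternating periods of 1% oxygen, lasting 4 or 12 h, and 4 h of 21% oxygen (cycling hypoxia, which ended with reoxygenation). There were 3 arrays in each of the 9 groups, labelled as biological replicates, and each line grew in its own medium, so that line and medium cannot be told apart. No line carried an engineered change, and the same control arrays served both hypoxia comparisons of a line.

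Values are log2 GC-RMA intensities, on which a difference of 1 is a doubling, and levels are not compared between genes, because probe sets differ in affinity. Each gene's value is that of its brightest probe set, and a gene was called changed at a limma adjusted p under 0.05, with Benjamini-Hochberg adjustment over all probe sets. A log2 level of 5 was taken as the noise level: 27 of the 32 genes exceeded it on all 27 arrays, AARS2, PARS2 and TARS3 on some of them, and MARS2 and SARS2 on few. The lowest correlation between replicates of a group was 0.9935. A marker was counted in a line where it exceeded the noise level on all 9 arrays of that line. All 5 epithelial markers did so in SK-OV-3 as well as PC-3 cells and 0 of 5 in WM793B cells. Of 7 melanocytic markers 3 did so in WM793B cells and 1 in each other line. The ovarian markers gave 2 of 4 in SK-OV-3, 2 in WM793B and 1 in PC-3 cells. The prostate markers gave 2 of 3 in PC-3 cells and 0 in the other lines, and the leukocyte or erythroid markers 0 of 4 in any line. The 9 measured hypoxia targets were all higher in chronic hypoxia in each line, and 9, 8 and 5 of them were higher in cycling hypoxia in PC-3, SK-OV-3 and WM793B cells. Adrenomedullin (ADM), a secreted vasodilator peptide, rose by 4.33 on the log2 scale in chronically hypoxic PC-3 cells.

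The SK-OV-3 chronic hypoxia array of replicate 2 stood apart in the genes described here. It lay lower than the mean of the other replicates of its group by a mean of -0.68 over the 12 cytosolic synthetase genes with a known ATF4 response, but by only -0.10 over the other cytosolic and -0.06 over the mitochondrial genes. Over the other known ATF4 targets measured the difference was -0.91. It did not stand apart over the whole array. Of the probe sets above noise, 5.91% differed at least 1.5-fold from the other replicates, against 7.66% for replicate 1 and 5.11% for replicate 3. Counts of members and of pathway genes in SK-OV-3 cells, and the tests between lines, are therefore given with and without this array. Because the array was singled out by these same genes, calls gained without it follow in part from that choice. They are a description of the remaining arrays and no separate support.

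A search of the RefSeq promoters (GRCh38.p14, 250 bases before to 50 after each annotated start, both strands) showed which members carry the amino acid response element, spelled TGATGNAA. Of the 32 members, 26 had a promoter in the set, and 7 of them (26.9%) held the letters, against 4.46% of 27305 genes. These were 6 of the 9 members with a known ATF4 response and a promoter, 0 of 5 other cytosolic members and 1 of 12 mitochondrial members. The 30-base windows around the matches are shown 5′ to 3′ with the element in capitals, because this is the textbook ATF4 site through which such genes respond:
AARS1 (chr16:70289675-70289704, plus strand): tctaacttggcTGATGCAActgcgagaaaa
CARS1 (chr11:3057407-3057436, plus strand): ttcctagaatcTGATGCAAccgccgccccg
GARS1 (chr7:30594834-30594863, minus strand): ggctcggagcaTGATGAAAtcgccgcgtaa
IARS1 (chr9:92293692-92293721, plus strand): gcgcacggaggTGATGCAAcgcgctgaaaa
NARS1 (chr18:57621804-57621833, minus strand): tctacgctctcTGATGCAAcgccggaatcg
TARS1 (chr5:33440956-33440985, minus strand): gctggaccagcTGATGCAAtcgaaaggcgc
YARS2 (chr12:32756076-32756105, minus strand): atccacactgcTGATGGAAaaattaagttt

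In CARS1, IARS1, NARS1, TARS1 and GARS1 the match lay within 33 bases of an annotated start, and in AARS1 and YARS2 it lay further upstream, at positions -187 and -197 from it. The core of the hypoxia response element, ACGTG, occurred in 7 of 26 member promoters (26.9%) against 24.9% of all genes, so that its share was near the background. The interferon-stimulated response element, searched as 2 GAAA blocks with 2 free bases between them, occurred in EARS2 and WARS1, 2 of 26 (7.69%) against 4.38% of genes. WARS1, tryptophanyl-tRNA synthetase, is a known interferon-gamma target, and its match is shown because the gene had the largest called change of all members:
WARS1 (chr14:100375383-100375412, minus strand): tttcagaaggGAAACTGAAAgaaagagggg
A match of letters is a description of the sequence and was not tested for binding.

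In PC-3 cells chronic hypoxia split the family. Of the 32 genes, 10 were higher (13.3% of all genes measured were higher) and 16 lower (22.6%). The 12 cytosolic genes with a known ATF4 response went mostly up, 8 higher and 3 lower with a median log2 change of 0.37, while 0 of the 6 other cytosolic genes rose and 4 fell (median -0.74), and 2 of the 14 mitochondrial genes rose and 9 fell (median -0.50). Among the 27 members above noise on all arrays 37.0% were higher and 48.1% lower, against 26.3% and 43.1% of 7091 such genes, and the median of those genes was itself -0.13. The 3 lower genes among the 12 were LARS1 (-0.21), NARS1 (-0.26) and VARS1 (-0.70). As these are bulk samples, fewer cells expressing a gene and less RNA per cell cannot be told apart.

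**Figure D1:**
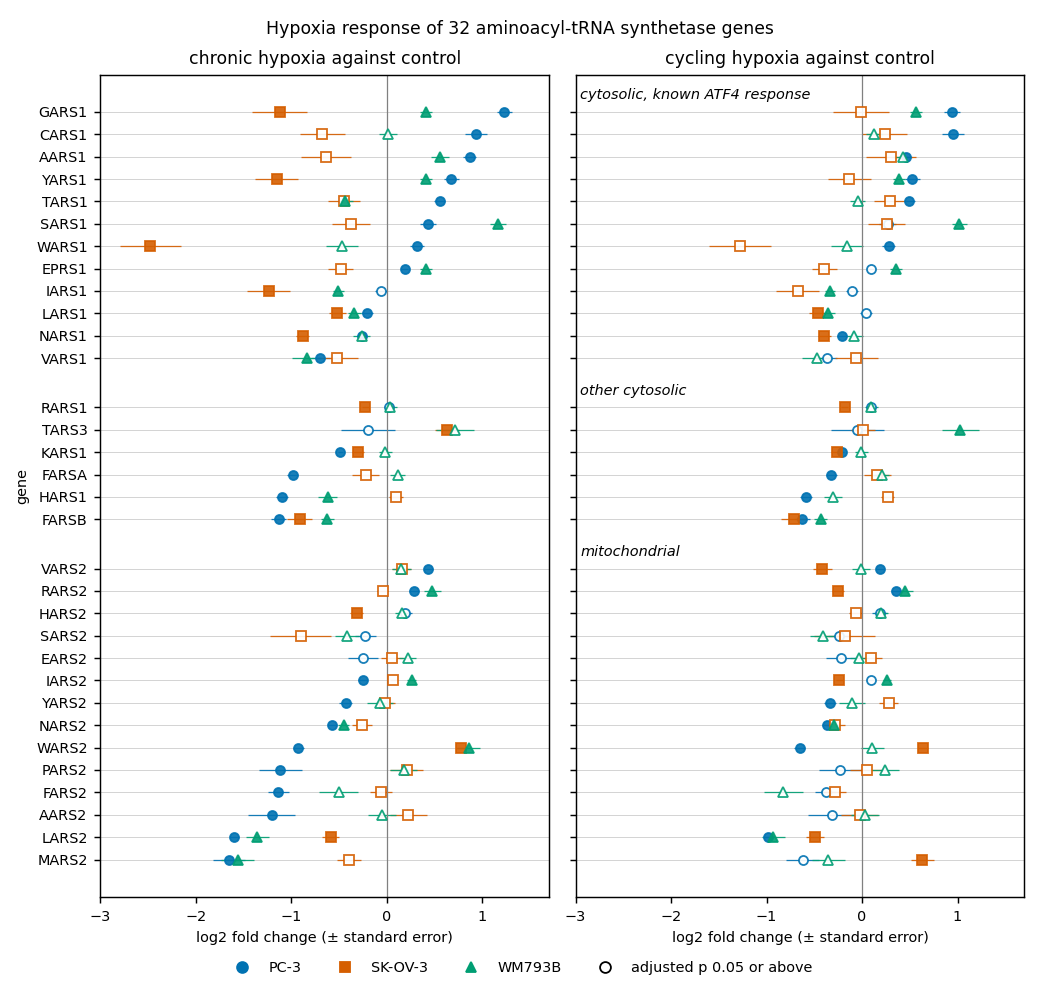
Log2 fold change (± standard error, 3 arrays against 3) of each of the 32 synthetase genes in chronic hypoxia (left) and cycling hypoxia (right) against control, for PC-3 (circles), SK-OV-3 (squares) and WM793B (triangles). Filled symbols passed an adjusted p of 0.05. In the uppermost block the PC-3 points for GARS1 (1.23) and the SK-OV-3 points for WARS1 (-2.48) lie at opposite ends, and LARS2 lies left of 0 in every line.

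GARS1, the dual glycyl enzyme, read 10.98, 10.74 and 11.02 in PC-3 control cells, 12.17, 12.11 and 12.16 in chronic hypoxia and 11.75, 11.95 and 11.87 in cycling hypoxia. Every hypoxic array exceeded every control array, and the chronic difference was 1.23 ± 0.08 (SE, limma adjusted p = 5.76e-05), a 2.35-fold rise. In cycling hypoxia the difference was 0.94 ± 0.08 (adjusted p = 0.000471). CARS1, the cysteinyl enzyme, moved alike in both treatments, from 10.30, 9.89 and 10.23 to 11.06, 11.11 and 11.05 in chronic and 11.03, 11.22 and 11.03 in cycling hypoxia. Its log2 changes were 0.93 ± 0.11 (adjusted p = 0.000842) and 0.95 ± 0.11 (adjusted p = 0.00157), with no overlap between hypoxic and control arrays.

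YARS1, the tyrosyl enzyme, rose from 9.08, 8.83 and 9.08 to 9.62, 9.70 and 9.69 in chronic hypoxia (0.67 ± 0.08, limma adjusted p = 0.000745) and to 9.45, 9.62 and 9.49 in cycling hypoxia (0.53 ± 0.08, adjusted p = 0.00443). AARS1, the alanyl enzyme, rose by 0.87 ± 0.07 and TARS1, the threonyl enzyme, by 0.55 ± 0.05 in chronic hypoxia. The seryl enzyme SARS1 read 10.15, 9.91 and 10.12 in control, 10.41, 10.58 and 10.48 in chronic and 10.21, 10.38 and 10.39 in cycling cells, higher in the chronic group (0.43 ± 0.08, adjusted p = 0.00854) and not called in the cycling group (0.27, adjusted p = 0.086). WARS1 moved least of these, from 9.22, 8.98 and 9.13 to 9.41, 9.50 and 9.37 (0.31 ± 0.07, adjusted p = 0.0159), its further probe set was not called (0.08), and the call was lost when chronic hypoxia replicate 2 was left out. IARS1, the isoleucyl enzyme, stayed between 11.35 and 11.59 on all 9 PC-3 arrays and was not called in either treatment. EPRS1, which charges both glutamate and proline, was higher by 0.18, a call that was lost without control replicate 1 or control replicate 2, and the call on LARS1 was lost without any of the 6 arrays.

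Both subunits of the cytosolic phenylalanyl enzyme fell in PC-3 cells. FARSB, its beta subunit, read 9.59, 9.32 and 9.43 in control, 8.27, 8.40 and 8.27 in chronic and 8.71, 8.84 and 8.91 in cycling cells, so that the cycling arrays lay between the other groups without overlap. The differences from control were -1.13 ± 0.08 (limma adjusted p = 7.53e-05) and -0.63 ± 0.08 (adjusted p = 0.00239). FARSA, the alpha subunit, fell by 0.99 and by 0.32. HARS1, the histidyl enzyme, went from 9.07, 9.13 and 9.18 to 7.93, 8.10 and 8.06 in chronic hypoxia (-1.10 ± 0.06, adjusted p = 2.94e-05) and to 8.44, 8.63 and 8.55 in cycling hypoxia (-0.59 ± 0.06, adjusted p = 0.00103). KARS1 fell by 0.49 and 0.21, and RARS1, the arginyl enzyme, was not called (0.02 and 0.10). TARS3, a second threonyl gene, read 5.63, 5.48 and 5.09 in control, 4.83, 5.22 and 5.56 in chronic and 5.63, 5.54 and 4.88 in cycling PC-3 cells, groups that overlapped.

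The mitochondrial leucyl enzyme LARS2 had the largest fall among the members above noise in PC-3 cells. It read 8.85, 8.95 and 8.94 in control, 7.29, 7.26 and 7.40 in chronic and 7.99, 7.92 and 7.87 in cycling cells. The differences were -1.60 ± 0.05 (limma adjusted p = 3.35e-06), a 3.02-fold fall, and -0.99 ± 0.05 (adjusted p = 5.94e-05), and a further probe set of the gene fell by 1.56 and 1.25. WARS2, the mitochondrial tryptophanyl enzyme, fell from 6.62, 6.63 and 6.53 to 5.66, 5.63 and 5.71 (-0.93 ± 0.06, adjusted p = 3.76e-05) and to 5.90, 5.87 and 6.06 (-0.65 ± 0.06, adjusted p = 0.000446). MARS2, the mitochondrial methionyl enzyme, was listed with the largest difference, -1.65 ± 0.17 (adjusted p = 0.000408), but its values of 4.49, 3.88 and 4.03 in control, 2.36, 2.65 and 2.42 in chronic and 3.60, 3.36 and 3.57 in cycling cells were all below the noise level. FARS2 fell by 1.14 in chronic hypoxia. AARS2 (-1.21) and PARS2 (-1.12) were called lower too, but 2 of their 3 chronic arrays were below the noise level, so that these sizes are uncertain. NARS2, YARS2 and IARS2 fell by 0.57, 0.43 and 0.25. The exceptions were VARS2 (0.43) and RARS2 (0.28), which rose, and HARS2, EARS2 and SARS2, which were not called.

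Cycling hypoxia changed fewer members in PC-3 cells, 8 higher (11.1% of all genes) and 9 lower (13.2%). Among members above noise these were 29.6% and 33.3%, against 23.0% and 26.2% of all genes above noise. The 12 genes with a known ATF4 response gave 6 higher and 1 lower (median 0.27), the other cytosolic genes 0 higher and 4 lower (median -0.27) and the mitochondrial genes 2 higher and 4 lower (median -0.28). The calls on NARS1, VARS2, WARS1 and YARS2 were lost without 1 array or another. Cycling cells compared directly with chronically hypoxic cells showed 12 members higher (15.0%) and 2 lower (5.58%). All 12 had been called lower in chronic hypoxia against control, a comparison that shares the chronic arrays, among them FARSA (0.67), LARS2 (0.61), FARSB and HARS1 (0.51 each) and FARS2 (0.76), and the 2 lower ones were AARS1 (-0.41) and VARS2 (-0.25). GARS1 did not pass in this comparison (-0.29, adjusted p = 0.072, limma).

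In SK-OV-3 cells the genes with a known ATF4 response were not higher in chronic hypoxia. Of the 32 members 2 were higher (11.5% of all genes) and 11 lower (13.6%), and of the 12 genes with a known ATF4 response 0 were higher and 6 lower (median -0.66). Above noise 3.70% of members were higher and 40.7% lower, against 19.3% and 29.3% of all such genes. The other cytosolic genes gave 1 higher and 3 lower (median -0.23) and the mitochondrial genes 1 higher and 2 lower (median -0.03). Without replicate 2 of the chronic group 2 members were higher and 12 lower, of which 9 were among the 12 genes, with 10.3% of all genes higher and 11.9% lower.

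WARS1 had the largest change in the family. SK-OV-3 control cells read 12.55, 12.66 and 12.69, chronically hypoxic cells 10.55, 9.33 and 10.58 and cycling cells 11.37, 11.42 and 11.27, 3 groups without overlap. The chronic difference was -2.48 ± 0.32 (limma adjusted p = 0.00256), a 5.57-fold fall, and without chronic hypoxia replicate 2 it was -2.07 (adjusted p = 6.29e-05). The cycling difference of -1.28 ± 0.32 did not pass (adjusted p = 0.0557), but without that array, which enters through the shared estimate of spread, the same difference had an SE of 0.05 (adjusted p = 0.000329). A further WARS1 probe set was lower in both treatments, by 2.34 and 1.44.

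**Figure D2:**
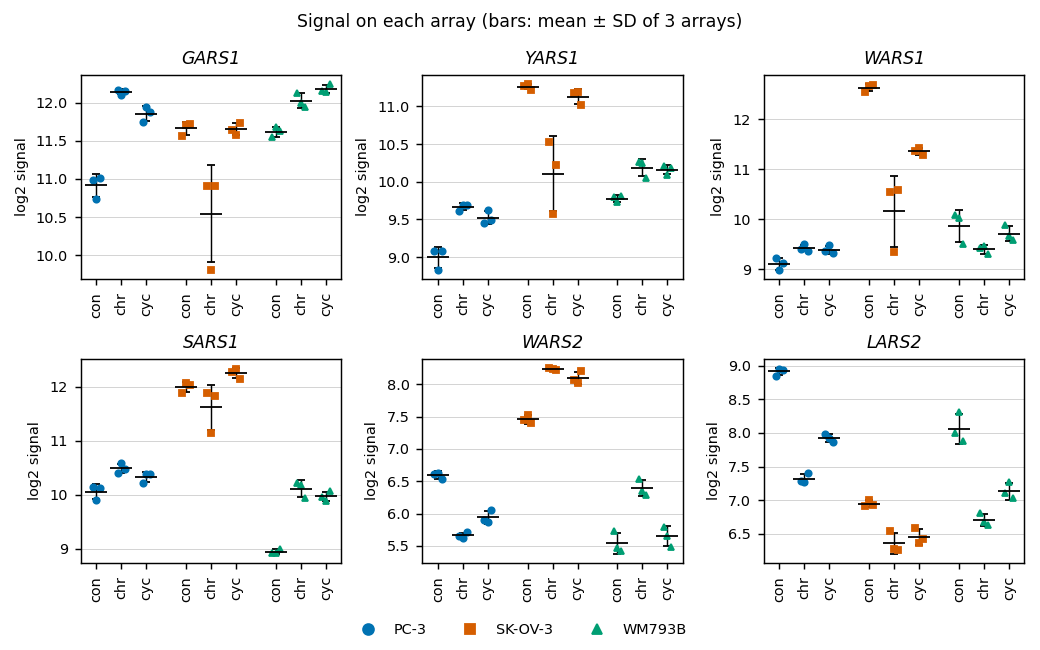
Log2 GC-RMA intensity of GARS1, YARS1, WARS1, SARS1, WARS2 and LARS2 on each array (points; bars are group means with SD, n = 3) in control (con), chronic (chr) and cycling (cyc) hypoxia for each cell line. The SK-OV-3 chronic hypoxia array of replicate 2 is the lowest point of its group for GARS1 (9.81), YARS1 (9.57), WARS1 (9.33) and SARS1 (11.14), while WARS2 and LARS2 show no such gap.

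IARS1 fell from 13.20, 13.15 and 13.28 to 12.15, 11.41 and 12.35 in chronic hypoxia (-1.24 ± 0.23, limma adjusted p = 0.0108), and its cycling values of 12.54, 12.52 and 12.54 also lay below all control values without passing (-0.68, adjusted p = 0.141). GARS1 read 11.56, 11.70 and 11.72 in control, 10.91, 9.81 and 10.91 in chronic and 11.64, 11.58 and 11.73 in cycling cells. Its chronic value was lower (-1.12 ± 0.29, adjusted p = 0.0427), a call that was lost when any of the 3 control arrays was left out but not without chronic replicate 2 (-0.76, adjusted p = 0.00137), and in cycling cells it lay at the control level (-0.01). YARS1 behaved similarly, with 11.27, 11.29 and 11.22 in control, 10.53, 9.57 and 10.22 in chronic (-1.15 ± 0.23, adjusted p = 0.0143) and 11.18, 11.19 and 11.02 in cycling cells (-0.13, adjusted p = 0.941). Its chronic call was lost without control replicate 2 (adjusted p = 0.0519), and it was 1.02 higher in cycling than in chronic hypoxia (adjusted p = 0.036). NARS1 (-0.88) and LARS1 (-0.52) were lower with each array left out in turn.

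CARS1 read 10.79, 10.79 and 10.87 in control, 10.47, 9.54 and 10.41 in chronic and 11.10, 11.10 and 10.96 in cycling SK-OV-3 cells. With all arrays neither difference passed (-0.68, limma adjusted p = 0.124, and 0.24, adjusted p = 0.698), although the chronic arrays lay below and the cycling arrays above every control array. Without chronic replicate 2 both were called, lower in chronic hypoxia (-0.38) and higher in cycling hypoxia (0.24). SARS1 read 11.89, 12.07 and 12.03 in control, 11.89, 11.14 and 11.83 in chronic and 12.28, 12.33 and 12.15 in cycling cells. Its cycling arrays lay above every other array and its chronic and control arrays met at 11.89, but neither difference from control was called (adjusted p = 0.339 and 0.587).

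Outside this group FARSB and LARS2 fell as in PC-3 cells. FARSB went from 9.27, 9.33 and 9.52 to 8.39, 8.24 and 8.74 in chronic (-0.91 ± 0.13, limma adjusted p = 0.00391) and to 8.69, 8.65 and 8.63 in cycling hypoxia (-0.71 ± 0.13, adjusted p = 0.0167). LARS2 went from 6.91, 7.0 and 6.93 to 6.54, 6.27 and 6.26 (-0.59 ± 0.09, adjusted p = 0.00562) and to 6.58, 6.36 and 6.42 (-0.50 ± 0.09, adjusted p = 0.0174), and its further probe set was not called (-0.36 and -0.26). WARS2 moved the other way from PC-3 cells, from 7.45, 7.53 and 7.40 up to 8.25, 8.23 and 8.21 in chronic (0.78 ± 0.06, adjusted p = 0.000208) and 8.06, 8.02 and 8.21 in cycling hypoxia (0.64 ± 0.06, adjusted p = 0.000891). Its further probe set rose as well, by 0.46 and 0.47. TARS3 rose in chronic hypoxia only, from 6.63, 7.03 and 6.67 to 7.52, 7.37 and 7.32 (0.63 ± 0.12, adjusted p = 0.0151), with 6.65, 6.82 and 6.90 in cycling cells, significantly below the chronic values (-0.62, adjusted p = 0.0256). The chronic call on TARS3 was lost without chronic replicate 1, control replicate 1 or control replicate 3, and those on HARS2 and KARS1 without chronic replicate 2 among others. HARS1, at 8.79, 8.72 and 8.87 in control, 8.88, 8.98 and 8.81 in chronic and 9.04, 9.18 and 8.96 in cycling cells, was not called.

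After cycling hypoxia 2 members were higher in SK-OV-3 cells (8.53% of all genes) and 9 lower (7.89%), of which the 12 genes with a known ATF4 response gave 0 and 2 (median -0.10). Above noise the members' shares were 3.70% and 33.3%, against 15.5% and 16.6% of all such genes. Cycling against chronic hypoxia gave 4 higher (8.53%) and 3 lower (6.49%), with 3 of the 12 genes higher (NARS1, TARS1 and YARS1) and 0 lower (median 0.69). The 2 genes higher than control were WARS2 and MARS2. MARS2 read 3.80, 3.90 and 3.77 in control, 3.49, 3.42 and 3.38 in chronic and 4.22, 4.68 and 4.46 in cycling cells (0.63 ± 0.12, limma adjusted p = 0.0218), all below the noise level, and the call was lost without cycling replicate 3 or any of the control arrays. Only WARS2 and IARS2 (-0.24) kept their cycling calls without any 1 array, and the call on FARSB was lost without any cycling array or without control replicate 2 or 3. Without chronic hypoxia replicate 2, 5 members were higher (8.67% of all genes) and 9 lower (8.22%) than control in cycling hypoxia. The 12 genes gave 3 of the higher and 5 of the lower ones. Against chronic hypoxia 9 members were then higher (6.97%) and 2 lower (5.34%). Of the 12 genes, 8 were then higher in cycling than in chronic hypoxia (AARS1, CARS1, GARS1, NARS1, SARS1, TARS1, WARS1 and YARS1, by 0.39 to 0.79) and 0 lower, against 3 with that array. The array was picked for lying low in these genes, so the added calls are no separate support.

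**Figure D3:**
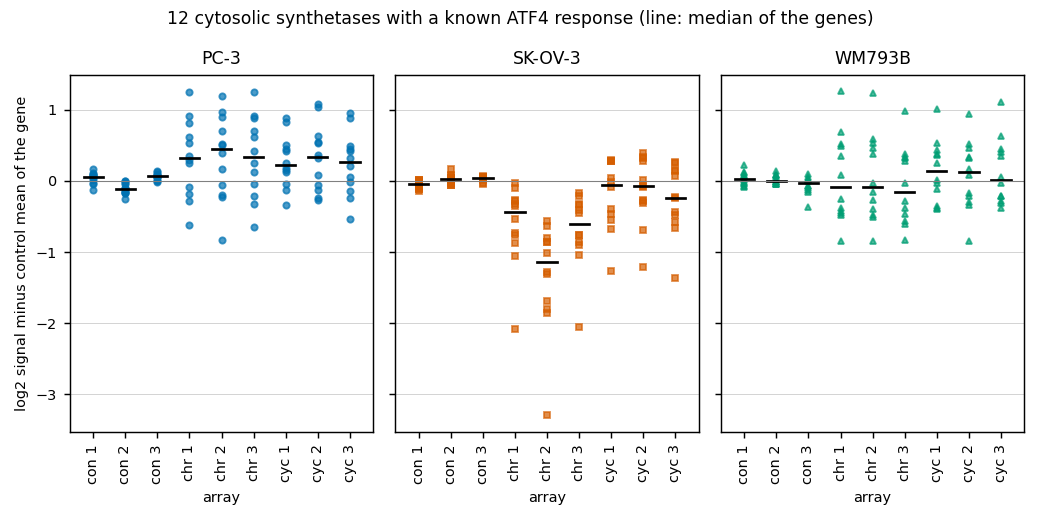
Difference of each array from the control mean of its cell line (log2), for the 12 cytosolic synthetase genes with a known ATF4 response (points are genes, lines are medians). PC-3 hypoxic arrays have medians between 0.22 and 0.45, SK-OV-3 chronic arrays -0.44, -1.15 and -0.60, and SK-OV-3 cycling arrays between -0.24 and -0.05.

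WM793B cells showed a mixture of both directions. In chronic hypoxia 8 members were higher (8.50% of all genes) and 9 lower (10.9%), and above noise 29.6% were higher and 29.6% lower, against 17.7% and 20.8%. The 12 genes with a known ATF4 response gave 5 higher and 4 lower (median -0.13), the other cytosolic genes 0 higher and 2 lower and the mitochondrial genes 3 higher and 3 lower. In cycling hypoxia 7 were higher (3.43%) and 5 lower (2.99%), and above noise 22.2% and 18.5%, against 7.70% and 5.27%. These held 4 higher and 2 lower of the 12 (median 0.04), 1 and 1 of the other cytosolic genes and 2 and 2 of the mitochondrial genes. Cycling against chronic hypoxia gave 2 higher (2.88%, MARS2 and TARS1) and 1 lower (2.13%, WARS2). In this comparison same-numbered arrays deviated together, and with the replicate number as a block 1 call, WARS2 lower, was left, while cycling against control gave 5 in place of 12. Correlations of the deviations were of similar size in cycling against control (0.159, 0.0854 and 0.291). The 12 calls there thus depend on whether the arrays are taken as unpaired. Without any 1 array 14 of the 17 chronic calls were kept (those on LARS1, RARS2 and VARS1 were not) but only 2 of the 12 cycling calls, GARS1 and SARS1, and leaving out each array in turn left between 3 and 5 cycling calls.

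SARS1 had the largest rise in this line in chronic hypoxia. It read 8.92, 8.93 and 9.0 in control, 10.22, 10.19 and 9.94 in chronic and 9.96, 9.89 and 10.07 in cycling cells, so that every hypoxic array lay above every control array. The differences were 1.17 ± 0.08 (limma adjusted p = 0.000499), a 2.24-fold rise, and 1.02 ± 0.08 (adjusted p = 0.00305). A further SARS1 probe set did not follow (0.13 in each treatment, not called), whereas in PC-3 cells it rose by 0.70 and 0.66. GARS1 rose from 11.54, 11.68 and 11.63 to 12.13, 12.00 and 11.95 in chronic (0.41 ± 0.06, adjusted p = 0.00606) and 12.15, 12.14 and 12.25 in cycling hypoxia (0.56 ± 0.06, adjusted p = 0.00714). YARS1 rose from 9.79, 9.73 and 9.81 to 10.26, 10.25 and 10.06 (0.41 ± 0.06, adjusted p = 0.00651) and to 10.21, 10.09 and 10.18 (0.38 ± 0.06, adjusted p = 0.0238).

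AARS1 (0.55) and EPRS1 (0.41) were also higher in chronic hypoxia, and the remaining members of the ATF4 group were lower or not called in WM793B cells. IARS1 read 12.32, 12.33 and 12.47 in control, 11.95, 11.87 and 11.78 in chronic (-0.51 ± 0.06, limma adjusted p = 0.00209) and 12.02, 12.03 and 12.06 in cycling cells (-0.33 ± 0.06, adjusted p = 0.0266). CARS1 overlapped between groups, at 10.66, 10.67 and 10.43 in control, 10.67, 10.57 and 10.57 in chronic and 10.84, 10.75 and 10.56 in cycling cells. WARS1 read 10.09, 10.01 and 9.50, then 9.42, 9.47 and 9.30 in chronic (-0.47, adjusted p = 0.131) and 9.89, 9.66 and 9.58 in cycling cells (-0.16, adjusted p = 0.78), while its further probe set was lower in chronic hypoxia (-0.62). TARS1 was lower by 0.44 in chronic hypoxia by its brightest probe set, and a further probe set that was called in the opposite direction was below the noise level on all 27 arrays, so that it gives no direction. It was the 1 exception among 84 pairs of called probe sets of a member, 83 of which pointed the same way.

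The falls shared with the other lines were again those of FARSB and LARS2. FARSB went from 9.75, 9.76 and 9.72 to 9.07, 9.09 and 9.19 in chronic (-0.63 ± 0.07, limma adjusted p = 0.00201) and 9.27, 9.46 and 9.20 in cycling hypoxia (-0.43 ± 0.07, adjusted p = 0.0221). LARS2 went from 8.0, 8.31 and 7.87 to 6.80, 6.68 and 6.63 (-1.36 ± 0.12, adjusted p = 0.00111), a 2.56-fold fall, and to 7.10, 7.27 and 7.03 (-0.93 ± 0.12, adjusted p = 0.0131). The cycling call on LARS2 was lost without cycling replicate 1 (adjusted p = 0.0522), and that on FARSB without cycling replicate 1 or any control array. HARS1 fell in chronic hypoxia, from 9.07, 8.85 and 8.85 to 8.24, 8.21 and 8.47 (-0.62 ± 0.10, adjusted p = 0.00782), with cycling values of 8.73, 8.52 and 8.62 that did not pass (-0.30, adjusted p = 0.174).

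WARS2 rose in chronic hypoxia alone, from 5.72, 5.47 and 5.43 to 6.54, 6.35 and 6.29 (0.85 ± 0.12, limma adjusted p = 0.00469), and was at 5.80, 5.66 and 5.49 in cycling WM793B cells, 0.75 below the chronic group (adjusted p = 0.0256). Its further probe set showed the same, 1.03 in chronic and 0.01 in cycling hypoxia. TARS3 read 5.82, 6.18 and 5.79 in control, 6.81, 6.87 and 6.23 in chronic (0.71, adjusted p = 0.0625) and 6.95, 7.10 and 6.82 in cycling cells (1.03 ± 0.20, adjusted p = 0.0401), and the cycling call was lost when any of the 6 arrays was left out. MARS2 fell from 4.79, 5.12 and 5.20 to 3.44, 3.60 and 3.38 (-1.56 ± 0.18, adjusted p = 0.00227), with 5.01, 4.55 and 4.49 in cycling cells (-0.35, adjusted p = 0.444), values at or below the noise level on most of these arrays.

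Set side by side, 3 genes were lower in chronic hypoxia in all 3 lines, FARSB, LARS1 and LARS2, and FARSB and LARS2 were called lower in cycling hypoxia in all 3 as well. The LARS1 calls in PC-3 and WM793B cells, and the cycling calls on FARSB and LARS2 in SK-OV-3 and WM793B cells, were lost when 1 array or another was left out. GARS1, WARS1 and YARS1 were higher in PC-3 and lower in SK-OV-3 cells in chronic hypoxia, and GARS1 and YARS1 were higher in WM793B cells too. Of these calls, WARS1 in PC-3 cells and GARS1 and YARS1 in SK-OV-3 cells were lost without 1 array or another. WARS2 was lower in PC-3 and higher in both other lines. EARS2 and SARS2 were not called in any hypoxia comparison with control.

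The difference in response between the lines was tested directly, by a moderated F-test over all 27 arrays in limma. It passed for 25 of the 32 members in chronic hypoxia (41.5% of all genes, and 70.7% of genes above noise) and for 18 in cycling hypoxia (28.3%, and 50.9% above noise). The smallest p among the members was that of WARS2, whose chronic response differed by -1.71 ± 0.12 for PC-3 minus SK-OV-3 cells (adjusted p = 1.98e-09) and by -1.78 ± 0.12 for PC-3 minus WM793B cells (adjusted p = 2.73e-09), with no call between SK-OV-3 and WM793B cells (adjusted p = 0.831). For WARS1, GARS1 and YARS1 the larger differences were those that involved SK-OV-3 cells. PC-3 minus SK-OV-3 differences in chronic response were 2.79 ± 0.31 for WARS1 (adjusted p = 9.89e-07), 2.35 ± 0.26 for GARS1 (adjusted p = 8.63e-07) and 1.83 ± 0.21 for YARS1 (adjusted p = 1.3e-06). SK-OV-3 minus WM793B differences were -2.01, -1.53 and -1.56 for the same genes, all called. Without SK-OV-3 chronic replicate 2 the F-test passed for 25 members in chronic and 21 in cycling hypoxia. No share of all genes is given for this fit, so the rise from 18 in cycling hypoxia is no result about the members. The PC-3 minus SK-OV-3 differences in chronic response were then 2.38 ± 0.17 for WARS1, 1.99 ± 0.10 for GARS1 and 1.56 ± 0.12 for YARS1, all called.

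The lines also differed before hypoxia. Among members 7 were higher (23.8% of all genes) and 16 lower (23.4%) in PC-3 than in SK-OV-3 control cells, 12 higher (23.2%) and 13 lower (22.5%) in PC-3 than in WM793B cells, and 16 higher (25.5%) and 9 lower (23.0%) in SK-OV-3 than in WM793B cells. Of the 12 genes with a known ATF4 response, SK-OV-3 controls had 8 at a higher and 2 at a lower level than WM793B controls (median 0.79). WARS1 control levels were 12.63 ± 0.08 (SD, n = 3) for SK-OV-3, 9.87 ± 0.32 for WM793B and 9.11 ± 0.12 for PC-3 cells, 11.5-fold higher in SK-OV-3 than in PC-3 cells (PC-3 minus SK-OV-3 log2 difference -3.52 ± 0.22 SE, limma adjusted p = 3.67e-11). SARS1 was 8.25-fold higher in SK-OV-3 (12.00 ± 0.10) than in WM793B controls (8.95 ± 0.04), with PC-3 at 10.06 ± 0.13. YARS1 followed the order SK-OV-3 (11.26 ± 0.04), WM793B (9.78 ± 0.04) and PC-3 (9.0 ± 0.14), each neighbour apart by more than its spread. LARS2 had the reverse extreme, highest in PC-3 (8.91 ± 0.05) and lowest in SK-OV-3 cells (6.95 ± 0.05), with WM793B at 8.06 ± 0.23. The mitochondrial tyrosyl enzyme YARS2 ran from 7.84 ± 0.16 in WM793B through 8.54 ± 0.09 in PC-3 to 10.38 ± 0.16 in SK-OV-3 cells, whereas RARS1 stayed between 10.85 and 10.95.

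**Figure D4:**
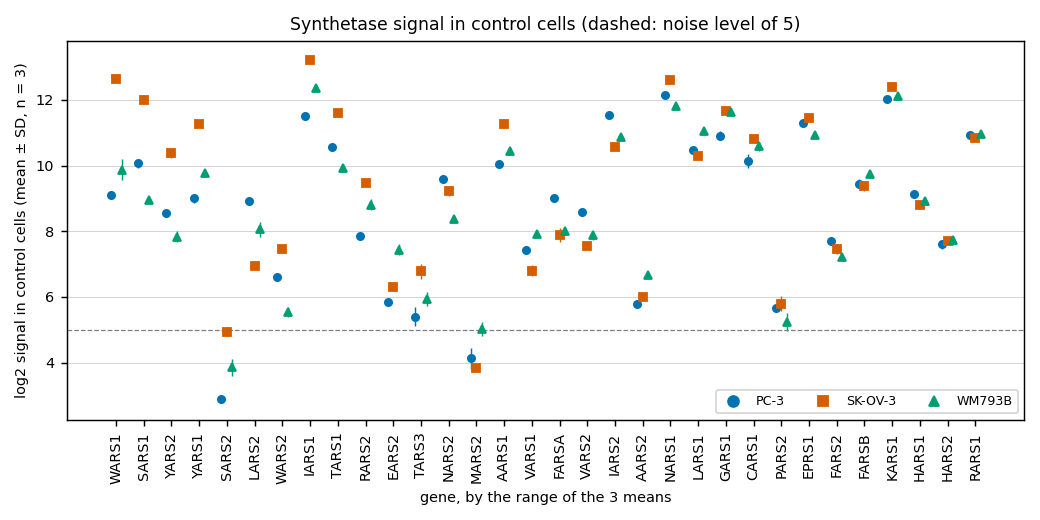
Log2 GC-RMA intensity of each synthetase gene in control cells of the 3 lines (mean ± SD, n = 3 arrays; dashed line, noise level). Symbols for WARS1 and SARS1 are spread furthest apart, with SK-OV-3 highest (12.63 and 12.00), and those for RARS1 lie within 10.85 and 10.95 by group mean.

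The presence of the amino acid response element in a promoter can be set beside these calls. Of the 7 members with the element 4 were higher and 2 lower in chronically hypoxic PC-3 cells (median 0.55), against 4 higher and 11 lower of the 19 without it (median -0.49). In SK-OV-3 cells 0 of the 7 were higher and 3 lower in chronic hypoxia (median -0.68), against 1 higher and 6 lower of the 19 (median -0.26), and without chronic replicate 2 it was 0 and 5 of the 7 (median -0.38) against 1 and 5 of the 19 (median -0.17). In WM793B cells the counts were 2 and 2 of the 7 (median -0.07) and 5 and 5 of the 19 (median 0.03). GARS1 and IARS1 both carry it near the start, and in PC-3 cells GARS1 rose by 1.23 while IARS1 was not called. WARS1, SARS1 and YARS1 were not among the genes with a match, and for YARS1 no promoter was searched.

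The other known ATF4 and amino acid response genes, 25 measured and none of them synthetases, differed in direction between the lines. Their background is the share of all genes higher and lower given above for each comparison. DDIT4 is known as a hypoxia target too, though it is not among the hypoxia targets counted above. Whether ATF4 drove these changes was not tested. In PC-3 cells 22 were higher and 0 lower in chronic hypoxia (median 1.63), led by the mTORC1 inhibitor DDIT4 (3.95), the lipoprotein receptor VLDLR (2.99) and the stress transcription factor DDIT3 (2.90), and 22 were higher and 0 lower in cycling hypoxia (median 1.17). In SK-OV-3 cells 4 were higher and 15 lower in chronic hypoxia (median -1.15), with ATF3 (-2.88), the glutathione-degrading enzyme CHAC1 (-2.77) and DDIT3 (-2.49) changed most, and 1 was higher and 1 lower in cycling hypoxia. Without chronic hypoxia replicate 2 the chronic counts were 3 higher and 18 lower (median -0.78) and the cycling counts 3 higher and 10 lower (median -0.25). In WM793B cells 12 were higher and 2 lower in chronic (median 0.42) and 4 higher and 2 lower in cycling hypoxia; DDIT3 (3.51) and VLDLR (3.45) rose most, and PSAT1, an enzyme of serine synthesis, fell by 2.26.

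The partners of the synthetases were counted in the same way, and the shares of all genes higher and lower given above for each comparison are their background. Of 14 mitochondrial translation factors 0 were higher and 9 lower in chronic and 0 and 7 in cycling PC-3 cells, with the elongation factor GFM1 (-1.94), the ribosome recycling factor MRRF (-1.58) and the elongation factor TSFM (-1.40) changed most. The counts were 0 and 6, then 0 and 4 in SK-OV-3 cells, where GFM1 fell by 1.52, and 1 and 4, then 0 and 0 in WM793B cells. Of 10 genes for tRNA export, trimming and proofreading, 1 was higher and 8 lower in chronic PC-3 cells (POP1, a subunit of the RNase that trims tRNA precursors, -2.16) and 1 and 5 in cycling cells, against 0 and 4, then 1 and 0 in SK-OV-3 cells, and 2 and 5, then 0 and 4 in WM793B cells. RNA polymerase III, which transcribes tRNA genes, gave 3 higher and 9 lower of 17 subunits in chronic PC-3 cells (POLR3B -2.29, POLR3K -1.69) and 1 and 4 in cycling cells, 1 and 4, then 3 and 0 in SK-OV-3 cells, and 2 and 3, then 0 and 1 in WM793B cells.

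Amino acid transporters, which supply the substrates, gave 5 higher and 3 lower of 10 in chronic PC-3 cells, with both chains of the large neutral amino acid transporter higher (SLC7A5 1.35, SLC3A2 1.16), and 4 and 3 in cycling cells. In SK-OV-3 cells the counts were 0 and 5 (the glycine transporter SLC6A9 -2.21), then 1 and 2, and in WM793B cells 5 and 1, then 4 and 0. Translation elongation factors and their regulators had few calls, with 1 higher and 1 lower of 7, then 1 and 0 in PC-3 cells, 0 and 0, then 1 and 1 in SK-OV-3 cells and 2 and 1, then 0 and 0 in WM793B cells. Interferon-gamma response genes other than WARS1 gave 0 higher and 4 lower of 8, then 1 and 3 in PC-3 cells, 1 and 1, then 0 and 1 in SK-OV-3 cells and 0 and 2, then 0 and 0 in WM793B cells. Without SK-OV-3 chronic replicate 2 the higher and lower counts in chronic, then cycling SK-OV-3 cells were 0 and 5, then 0 and 4 for mitochondrial translation factors, 0 and 4, then 2 and 1 for tRNA export, trimming and proofreading, and 1 and 4, then 3 and 0 for RNA polymerase III. They were 0 and 4, then 1 and 2 for transporters, 1 and 0, then 1 and 1 for elongation factors, 1 and 0, then 1 and 1 for interferon-gamma genes, and 9 and 0, then 7 and 0 for hypoxia targets. AIMP1, the 1 scaffold of the multisynthetase complex measured, was lower in chronic SK-OV-3 cells (-0.48) and in cycling WM793B cells (-0.22). Of the complex's own 5 enzymes among the members, EPRS1, IARS1, KARS1, LARS1 and RARS1, 0 were higher and 4 lower in chronic and 0 and 3 in cycling SK-OV-3 cells. In WM793B cells they split, with EPRS1 higher (0.41) and LARS1 (-0.34) and IARS1 lower in chronic hypoxia, and in chronic PC-3 cells 1 was higher and 2 lower.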

How the data were processed

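The authors deposited log2 expression values per probe set, made from the scanned arrays with GC-RMA (background correction by probe sequence, quantile normalisation and summary), a method that pulls dim probe sets towards a floor. No intensities before that step were used here, and the number of arrays limits the precision. All 54675 probe sets were fitted without a filter in limma 3.58.1 (R 4.3.3), with an intensity trend, separately in the 9 arrays of each cell line, and over all 27 arrays for differences between lines. Genes were read by their brightest single-symbol probe set. The study's own test was a t-test with a random variance model after a variation filter; limma's moderated test was used in its place. The scripts were tested on simulated data. Per array values are given for the 3 called members with the largest change in each comparison of hypoxia with control and for the 3 with the smallest p between lines, and at most 3 genes are named per pathway list. Members, lists and motifs were chosen with earlier results of these data known. Alternatives were no trend, filters, other scaling, 1 fit for all arrays, other probe sets, a replicate block and leaving out each array, and fits without SK-OV-3 chronic hypoxia replicate 2 were added after seeing the data. Same-numbered WM793B chronic and cycling arrays had correlated deviations (0.205, 0.11 and 0.173), all over 0.1, a pairing seen in the data and not given by the labels. The calls, shares and adjusted p reported for that comparison are nevertheless those of the fit without pairing. With the replicate number as a block it gave 1 call. WM793B control and cycling arrays gave 0.159, 0.0854 and 0.291, values of similar size, and their reported results are from the fit without pairing too.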

Additional observations from a re-analysis of the deposited data

Results flagged for a closer look

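The response to hypoxia differed between the 3 cell lines, by limma's moderated F-test with Benjamini-Hochberg adjustment over all probe sets, for all 12 of the genes described by array in chronic hypoxia and 9 of them in cycling hypoxia. These genes were chosen for large changes or small p values, and 41.5% and 28.3% of all genes (70.7% and 50.9% of genes above noise) passed the same tests. In chronic hypoxia the adjusted p was 5.81e-10 for WARS2, 4.01e-07 for HARS1, 1.41e-06 for YARS1, 1.95e-06 for WARS1, 2.09e-06 for GARS1, 1.26e-05 for SARS1, 1.79e-05 for LARS2, 6.88e-05 for CARS1, 0.000211 for MARS2, 0.000397 for IARS1, 0.0258 for FARSB and 0.0446 for TARS3. WARS2 and HARS1 fell in PC-3 cells (-0.93 and -1.10) and not in SK-OV-3 cells (0.78 and 0.10), and FARSB and LARS2 fell in all lines by different amounts. In cycling hypoxia the adjusted p was 6.25e-07 for WARS2, 5.06e-05 for HARS1, 0.000811 for MARS2, 0.00252 for WARS1, 0.00766 for SARS1, 0.0197 for TARS3, 0.0206 for LARS2, 0.0269 for CARS1 and 0.0318 for GARS1. MARS2 was below or near the noise level in all lines. SK-OV-3 chronic hypoxia replicate 2, which lay low for WARS1, GARS1, YARS1, CARS1, SARS1 and IARS1, is part of these tests. Without it 11 of the 12 passed in chronic hypoxia, TARS3 being lost (adjusted p = 0.0574), and 11 in cycling hypoxia. No share of all genes is given for that fit, so the rise from 9 in cycling hypoxia is no result about these genes.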

How the results depend on the processing

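No gene described by array turned its direction under any alternative run. The sign of TARS1 in WM793B cells turned only with the mean of its probe sets, which takes in a probe set below the noise level on all 27 arrays. Counts of members called are given here without the share of all genes under the same setting, so a moved count is no result about the members. Those that moved by over 1.5 times were these. With 1 fit over all 27 arrays SK-OV-3 chronic hypoxia gave 20 (13 as reported), SK-OV-3 cycling against chronic 15 (7) and WM793B cycling against chronic 5 (3). With a filter on dim probe sets, with each array centred, and with the mean of a gene's probe sets, SK-OV-3 cycling against chronic gave 14, 14 and 11. With the variation filter, which leaves 22 members, the difference between lines in chronic hypoxia was called for 16 (25). All correlations of same-numbered arrays exceeded 0.1 in 1 comparison, WM793B cycling against chronic (9 of 27 did so in all, from -0.12 to 0.29). WM793B cycling against control came near to this, with 0.159, 0.0854 and 0.291, so that pairing is undecided there. With the replicate number as a block SK-OV-3 cycling against control gave 3 (11), SK-OV-3 cycling against chronic 4, WM793B cycling against control 5 (12) and WM793B cycling against chronic 1. Leaving out 1 array at a time gave 24 to 25 in chronic PC-3 (26), 13 to 17 in cycling PC-3 (17), 10 to 13 in PC-3 cycling against chronic (14), 9 to 14 in chronic SK-OV-3, 3 to 6 in cycling SK-OV-3, 3 to 11 in SK-OV-3 cycling against chronic, 15 to 19 in chronic WM793B (17), 3 to 5 in cycling WM793B, 0 to 2 in WM793B cycling against chronic, 23 to 26 for the chronic difference between lines and 14 to 19 for the cycling one (18). YARS1 in chronic WM793B cells was lost in 1 fit over all arrays (adjusted p = 0.0537, limma) and SARS1 in cycling WM793B cells with the mean of its probe sets (0.57, adjusted p = 0.0643), where the median of the 12 genes in chronic WM793B cells was 0.25 and not -0.13. The cause of these changes was not tested.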
